A study of Mus musculus with 39 samples.

Results

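The transcripts described here are those of Trem1 and of 9 other genes typical of neutrophils, S100a8, S100a9, Retnlg, Csf3r, Mpo, Ngp, Camp, Fpr1 and Clec4d. They were chosen by gene name among the 40628 probes and 29411 gene names of the array, and Trem1 was picked because its signal lay lower on the high fat diet than on the low fat diet at every time point with a value. All 10 genes were on the array, 9 of them with 1 probe and Trem1 with 2 probes, so that 11 probes were followed. A gene with several probes was represented by the brighter one.

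RNA of epididymal adipose tissue from C57BL/6J mice was hybridised to 39 Agilent arrays in 1 colour. LFC mice ate a control diet with 10% of calories from fat. They were sampled on days 1, 6, 10 and 14 and in weeks 0, 3, 6, 9, 12, 15 and 18, which gave 11 arrays. The high fat diet, HFC, held 60% of calories as fat with added sucrose and was sampled at the same times other than day 1, which gave 10 arrays. HF5, HF20 and HF75 mice received the high fat diet together with 5, 20 or 75 µg of the botanical formulation KAL-1 and were sampled in weeks 3 to 18, which gave 6 arrays each. The mice were 3 to 4 weeks old when they were assigned to diets, with 30 animals per diet and 5 killed at each interval. Weeks were counted from day 14, so day 14 and week 0 name the same time on diet. Each diet had 1 array at a time point. The sources do not say whether an array held 1 animal or a pool, so time points stood in for replicates and every p-value measures the spread between time points.

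Neutrophils are short-lived phagocytes that are made in the bone marrow and reach tissues through the blood. Their granule proteins are made at successive stages of maturation: myeloperoxidase (Mpo) and the other primary granule proteins early, Ngp and the cathelicidin Camp in the secondary granules later, and the calcium-binding pair S100a8 and S100a9 abundantly in the mature cell. TREM1 is a surface receptor of neutrophils and monocytes that signals through the adaptor DAP12 and amplifies inflammatory responses. In adipose tissue, neutrophils are known as early arrivals when mice are put on a high fat diet. In bulk tissue, more neutrophils and more RNA per neutrophil cannot be told apart.

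Probe sequences are given for S100a8 and Camp, which stand for the mature-cell and the secondary granule genes below. Each is the 60-base oligonucleotide on the array, written 5′ to 3′, and each has 2 reading frames without a stop codon.
S100a8 probe: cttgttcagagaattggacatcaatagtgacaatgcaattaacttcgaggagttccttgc
Camp probe: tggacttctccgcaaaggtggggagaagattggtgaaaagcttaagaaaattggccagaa
The Trem1 probes differ in this respect: the brighter one has 2 frames without a stop codon and the dimmer one has 0.

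RefSeq promoter windows on GRCm38.p6, from 250 bases before to 50 bases after the annotated start, are shown for 4 genes whose signals moved together (S100a8, S100a9, Ngp and Camp) and for Trem1, whose signal followed other genes. Capitals mark matches on either strand to GAGGAA (the core of PU.1 sites), TTNNGNAA (a relaxed C/EBP site), TATAAA or TGTGGT (the core of RUNX sites). In S100a8 the GAGGAA match at -36, read on the other strand, runs into the TATAAA box at -30 without overlap.
S100a8, chr3:90668821-90669120, + strand: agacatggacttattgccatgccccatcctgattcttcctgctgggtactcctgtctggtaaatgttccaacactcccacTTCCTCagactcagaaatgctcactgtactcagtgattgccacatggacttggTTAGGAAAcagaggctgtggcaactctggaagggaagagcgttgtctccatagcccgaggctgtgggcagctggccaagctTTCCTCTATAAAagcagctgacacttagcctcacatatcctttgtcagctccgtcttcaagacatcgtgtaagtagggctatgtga
S100a9, chr3:90695672-90695971, - strand: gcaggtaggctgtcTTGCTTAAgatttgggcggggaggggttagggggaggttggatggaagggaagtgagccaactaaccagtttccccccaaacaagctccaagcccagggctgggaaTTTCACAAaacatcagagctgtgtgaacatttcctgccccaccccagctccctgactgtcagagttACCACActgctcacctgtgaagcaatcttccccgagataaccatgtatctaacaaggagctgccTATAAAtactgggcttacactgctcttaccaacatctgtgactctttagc
Ngp, chr9:110419558-110419857, + strand: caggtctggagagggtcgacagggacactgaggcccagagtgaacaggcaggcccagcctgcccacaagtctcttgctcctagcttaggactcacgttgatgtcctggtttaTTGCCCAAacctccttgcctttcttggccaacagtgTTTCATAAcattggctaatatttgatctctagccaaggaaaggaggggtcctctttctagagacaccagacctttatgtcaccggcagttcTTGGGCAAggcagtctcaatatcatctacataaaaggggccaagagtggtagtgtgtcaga
Camp, chr9:109849407-109849706, - strand: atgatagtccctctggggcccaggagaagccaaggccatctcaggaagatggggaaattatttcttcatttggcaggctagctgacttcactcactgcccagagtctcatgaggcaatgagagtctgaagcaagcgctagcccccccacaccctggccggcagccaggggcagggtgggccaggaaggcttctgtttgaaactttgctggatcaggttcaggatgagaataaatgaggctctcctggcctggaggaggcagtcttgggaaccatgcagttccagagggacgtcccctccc
Trem1, chr17:48232489-48232788, + strand: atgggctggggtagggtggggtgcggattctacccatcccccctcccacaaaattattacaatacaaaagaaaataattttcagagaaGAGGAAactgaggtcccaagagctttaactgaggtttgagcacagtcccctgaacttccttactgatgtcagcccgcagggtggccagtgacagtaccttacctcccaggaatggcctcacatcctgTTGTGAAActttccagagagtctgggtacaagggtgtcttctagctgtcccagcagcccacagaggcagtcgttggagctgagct
All 10 genes had a window. TTNNGNAA was found in 7 of the 10 windows and in 40.7% of all 32851, GAGGAA in 5 of 10 and in 28.3% of all, TATAAA in 3 of 10 and in 13.6% of all, and TGTGGT in 1 of 10 and in 16.8% of all. The Camp window held none of these words, and the Ngp window held 3 matches to TTNNGNAA. These are matches of letters in a fixed window and not measured binding sites.

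Signal is given as the normalised log2 signal, the log2 of the processed intensity minus the 75th percentile of the same array, so that 0 is the brightness of the 75th percentile and 1 unit is a doubling. A spot was counted as detected where the scanner software marked it well above background. On 37 of the arrays, 53.7 to 79.6% of spots were detected, 21 to 387 spots were marked as outliers, and Spearman correlations against all other arrays had medians of 0.90 to 0.95. The other 2 arrays stood apart. LFC week 3 had 97.1% of spots detected, 16431 outlier spots and a median correlation of 0.46, and HFC week 12 had 94.5%, 10531 and 0.81. Ngp, Camp and Fpr1 have no value on either of them, Trem1 and Mpo have none on HFC week 12, and the differences between LFC and HFC are given with and without them. The scans of days 1 to 14 postdate those of weeks 0 to 18, and LFC week 3 was scanned on a day of its own.

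S100a8, S100a9 and Clec4d were detected on all 39 arrays, Retnlg and Mpo on 38, Csf3r, Camp and Fpr1 on 36, and Ngp on 32. Trem1 was the faintest in this sense and was detected on 25 of the 38 arrays with a value. Each gene varied widely between arrays. The distance between the lowest and the highest array was 9.22 log2 units for Camp, 8.69 for Ngp and 7.36 for S100a8, and it was smallest for Csf3r at 5.45. S100a9 was saturated on 1 array.

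**Figure D1:**
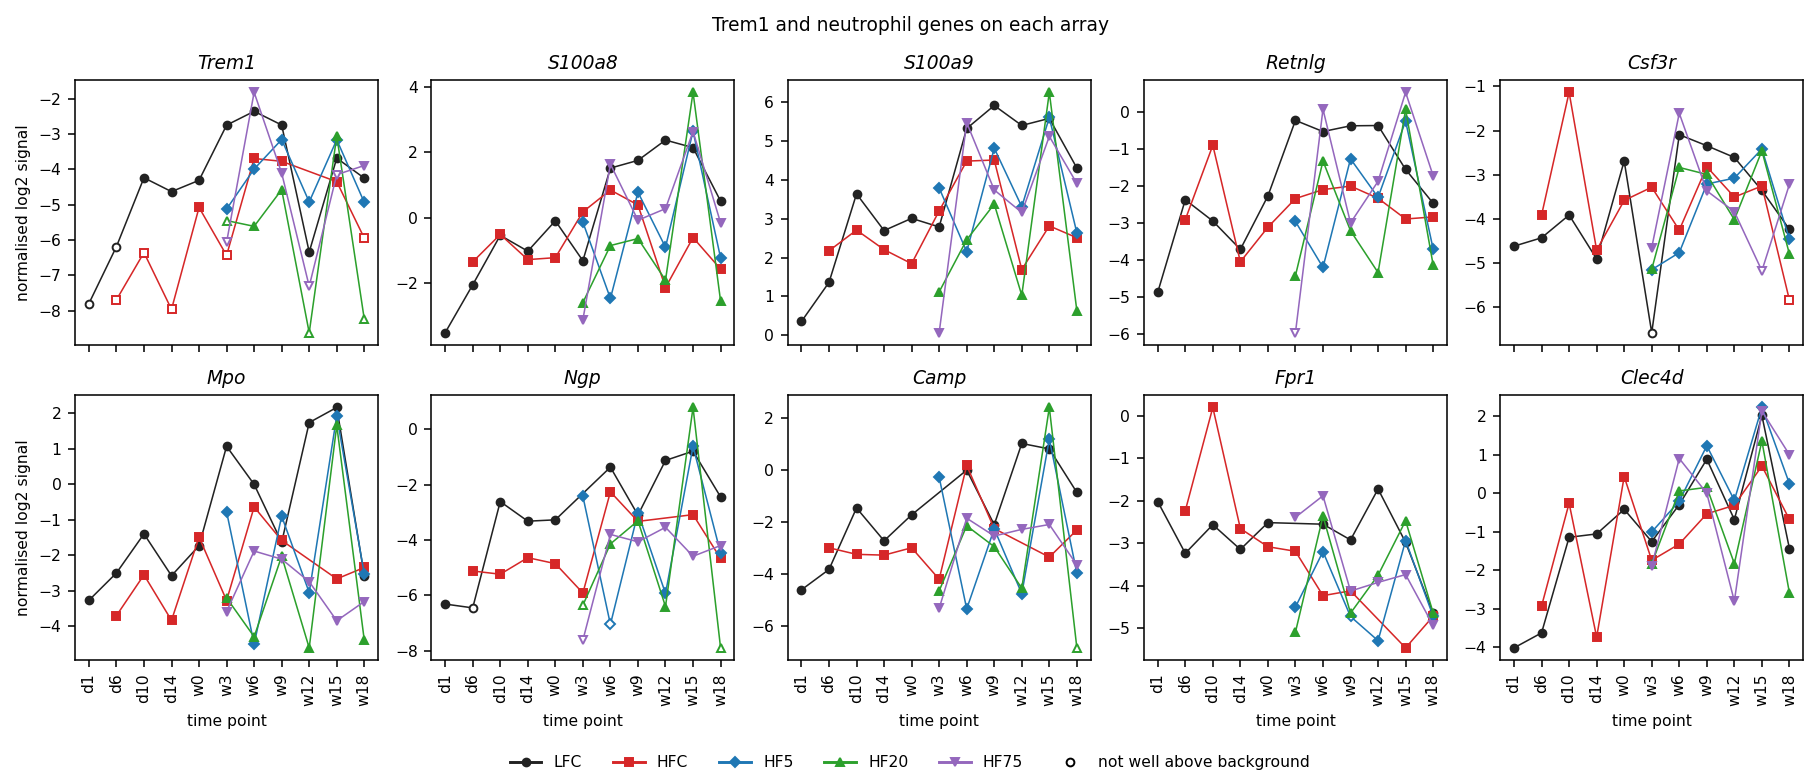
Normalised log2 signal (vertical axis) of the 10 genes at each time point (horizontal axis, d for day and w for week), by diet. Open symbols are spots not well above background and gaps are missing values. LFC values of S100a8 and S100a9 in weeks 6 to 18 lie above the LFC values of days 1 to 14 and week 0, and the HF5 and HF20 arrays of week 15 are high for most genes.

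Trem1 on LFC had a lowest, median and highest normalised log2 signal of -7.80, -4.25 and -2.36 over 11 arrays, of which 9 were detected. On HFC the same values were -7.96, -5.95 and -3.69 over 9 arrays, of which 4 were detected. Both ranges overlapped over most of their length, with means of -4.48 on LFC and -5.70 on HFC.

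At matched times, HFC minus LFC for Trem1 was -1.50 on day 6, -2.11 on day 10, -3.33 on day 14 and -0.77 in week 0. It was -3.68 in week 3, -1.33 in week 6, -1.03 in week 9, -0.67 in week 15 and -1.70 in week 18. The mean was -1.79 ± 1.08 (SD, n = 9 pairs), and -1.55 ± 0.86 (SD, n = 8 pairs) without week 3, whose LFC array stood apart. With day 14 and week 0 averaged as 1 time it was -1.76 ± 0.92 (SD, n = 8 pairs), and those times gave -3.33 and -0.77. This sign pattern is the one by which Trem1 was picked and is therefore given as a description. Of 29147 probes tested with at least 8 pairs, 40 were lower on HFC in every pair, or 0.137%. In 5 of the 9 pairs the HFC spot was not well above background, on days 6, 10 and 14 and in weeks 3 and 18, so the size of those differences is uncertain. On day 6 the LFC spot was not well above background either, so the sign of that difference is uncertain too. The mean was -0.89 with normexp background correction, -1.01 with quantile normalisation, -1.30 with outlier spots kept and -1.30 in the deposited log2 table.

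The dimmer Trem1 probe was lower on HFC in 7 of 9 pairs. It was read on the same arrays by which the gene was picked, so its values are a description too. Its mean difference was -0.95 ± 1.26 (SD, n = 9 pairs). At least 1 of its spots was not well above background on day 6 and in weeks 6, 9 and 18, so these differences, the sign in week 18 included, are uncertain. The exceptions were week 12, with -5.58 on HFC against -6.65 on LFC, and week 18, with -4.86 on HFC against -5.63 on LFC. It has a value on HFC week 12, the array that stood apart, where the brighter probe has none. The probes thus disagreed in sign in week 18, where they gave -1.70 and 0.78.

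**Figure D2:**
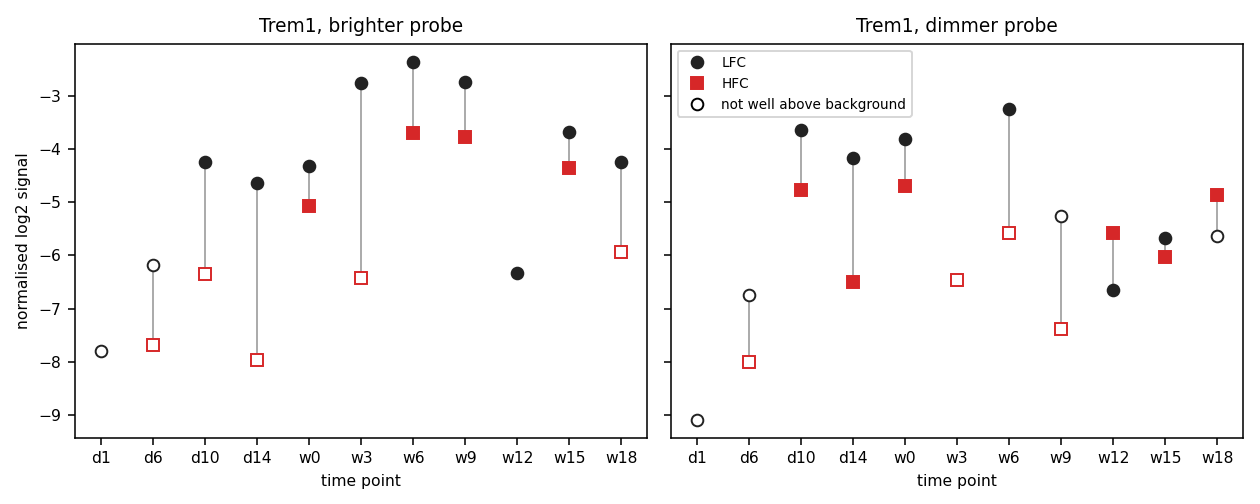
Normalised log2 signal (vertical axis) of the brighter (left) and dimmer (right) Trem1 probe on LFC and HFC at each time point. Grey lines join the arrays of a time point and open symbols are spots not well above background. The brighter probe is lower on HFC in all 9 pairs and the dimmer probe in 7 of 9.

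The other genes shared the direction at some times and not at others. Over all pairs the mean HFC minus LFC was -1.06 ± 1.75 (SD, n = 10) for S100a8, -1.19 ± 1.36 (SD, n = 10) for S100a9 and -0.86 ± 1.21 (SD, n = 10) for Retnlg, the resistin-like protein of myeloid cells. Among the granule genes it was -1.43 ± 1.89 (SD, n = 9) for Mpo, -1.23 ± 1.30 (SD, n = 8) for Ngp and -1.04 ± 1.53 (SD, n = 8) for Camp. For these 6 genes the spread between time points was as large as the mean or larger. Csf3r, the receptor for the granulocyte growth factor G-CSF, had 0.09 ± 1.76 (SD, n = 10), and Fpr1, the receptor for bacterial formyl peptides, had -0.22 ± 1.66 (SD, n = 8). Clec4d, a C-type lectin receptor of myeloid cells, had -0.34 ± 1.24 (SD, n = 10). Without weeks 3 and 12 the means over 8 pairs were -0.94 for S100a8, -1.07 for S100a9, -0.57 for Retnlg, -1.07 for Mpo, -0.19 for Csf3r and -0.41 for Clec4d. The Csf3r mean was -0.27 without week 3 and -0.21 without day 10, so its sign rests on single time points. With 1 time point left out, S100a8 moved to -0.67 without week 12, Camp to -0.60 and Fpr1 to 0.11 without week 15, and Clec4d to -0.08 without day 14. The genes were proposed with this contrast in view, and no p-value is attached to them here.

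Among the 9 genes other than Trem1, 2 were lower on HFC on day 6 and 4 on day 10, where 58.2% and 54.5% of all probes tested were lower. The count was 7 of 9 on day 14, in week 0 and in week 18 (52.5%, 47.9% and 49.7% of all probes). It was 8 of 9 in weeks 6, 9 and 15 (51.3%, 48.6% and 46.5% of all probes). Over these 9 genes week 15 had the largest median difference, -2.48, with S100a8 at 2.14 on LFC and -0.61 on HFC, and Mpo at 2.17 and -2.66. Across all 29168 probes tested for HFC against LFC, limma called 0 at an adjusted p of 0.05 (0% called) and 889 at an unadjusted p of 0.05, and the smallest adjusted p was 0.998. The median difference was 0.03 over all probes and -1.04 over the 9 genes other than Trem1, which were proposed with this contrast known.

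Within LFC, weeks 3 to 18 (late, 6 arrays) were compared with days 1 to 14 and week 0 (early, 5 arrays). The estimate was positive for 9 of the 10 genes and negative for Fpr1, and it was positive for 13290 of all 30420 probes. None of the 10 genes passed the adjusted threshold with all 11 arrays. S100a9 was 0.35, 1.36, 3.64, 2.70 and 3.01 on the early arrays in time order and 2.79, 5.33, 5.92, 5.41, 5.59 and 4.31 on the late ones. Every late array other than week 3 lay above every early one. S100a8 was -3.52, -2.06, -0.54, -1.03 and -0.10 early and -1.32, 1.52, 1.75, 2.38, 2.14 and 0.51 late. It showed the same separation once week 3 was set aside. These were the only 2 of the 10 genes whose late arrays other than week 3 all lay above the early ones, which was so for 0.862% of the 29942 probes compared.

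The limma estimates of late minus early within LFC, in log2 units with their standard errors, were 2.68 ± 0.68 for S100a9 (adjusted p = 0.197) and 2.61 ± 0.75 for S100a8 (adjusted p = 0.346). For Retnlg the estimate was 2.31 ± 0.56 (adjusted p = 0.154), the smallest adjusted p of the 10 genes. The granule genes Camp, Ngp and Mpo had 2.63 ± 0.74, 2.63 ± 0.82 and 2.42 ± 0.81. None of the 10 passed the threshold after adjustment over all 30420 probes, of which 149 passed (0.49% called). At an unadjusted p of 0.05, 7 of the 10 were higher late (S100a8, S100a9, Retnlg, Mpo, Ngp, Camp and Clec4d), beside 2.14% of all probes. The median over the 10 genes was 2.37, and over all probes it was -0.09.

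Without the LFC week 3 array, S100a9 passed the threshold with 3.10 ± 0.60 (limma adjusted p = 0.0454), and 0.7% of all probes were called. The adjusted p for S100a8 was then 0.0559. Over all alternatives the limma adjusted p of S100a9 lay between 0.0454 and 1.

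The estimates of Fpr1 and Csf3r were the smallest on LFC. Fpr1 ran from -3.24 to -2.02 on the early arrays and from -4.65 to -1.73 on the late ones, and its estimate was -0.27 ± 0.52. Csf3r had an estimate of 0.57 ± 0.75 with all arrays and 1.18 ± 0.52 without week 3 (limma adjusted p = 0.662). Trem1 had 1.74 ± 0.81 (limma adjusted p = 0.909), with 3 of 5 early and 6 of 6 late arrays detected.

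Late and early differ in more than the age of the mice. Only week 0 of the early arrays was scanned in the period of the late ones. Against week 0 alone, the differences on LFC were 1.26 for S100a8, 1.88 for S100a9, 1.35 for Retnlg, 1.49 for Camp, 1.51 for Ngp and 1.86 for Mpo. These 6 kept their sign and were smaller than against all early arrays, with 1 early array and a limma adjusted p of 1 for each. Clec4d and Trem1 were 0.29 and 0.62 against week 0, and Csf3r was -0.85.

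Within HFC, late minus early was smaller for the same genes. S100a8 was -1.35, -0.51, -1.29 and -1.23 on days 6, 10 and 14 and in week 0, and 0.18, 0.85, 0.39, -2.14, -0.61 and -1.58 late. Its early and late arrays overlapped, and the estimate was 0.61 ± 0.57. S100a9 had 0.97 ± 0.54, Retnlg 0.33 ± 0.51 and Camp 0.74 ± 0.73. Trem1 had 1.93 ± 0.76 (limma adjusted p = 0.265), with detection on 1 of 4 early and 3 of 5 late arrays with a value. The detected early array was week 0, the highest early one at -5.08, while the late mean was -4.84. The size of this estimate thus rests on days 6 to 14, where Trem1 was not detected. The dimmer Trem1 probe had means of -6.00 early and -5.98 late.

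Fpr1 went the other way on HFC. It was -2.24, 0.19, -2.66 and -3.08 early and -3.19, -4.23, -4.12, -5.46 and -4.72 late, with no value in week 12. Every early array lay above every late one, which without week 12 was so for 1 of the 10 genes and for 2.53% of 30472 probes. The estimate was -2.40 ± 0.68 (limma adjusted p = 0.224). Of 30582 probes tested within HFC, limma called 0 (0% called) and 5152 had an unadjusted p below 0.05, 8.05% of all being higher late and 8.8% lower late. Among the 10 genes, Trem1 was in the first class and Fpr1 in the second.

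Whether the change with time differed between the diets was tested on the paired differences. The estimates were -1.58 ± 0.59 for Retnlg (limma adjusted p = 0.841) and -2.28 ± 0.77 for Fpr1 (limma adjusted p = 0.841), the only ones of the 10 with an unadjusted p below 0.05. S100a8 had -1.49 ± 0.95 and S100a9 -1.24 ± 0.75. Of 29168 probes 0 passed (0% called) and 1499 had an unadjusted p below 0.05. A difference between the diets in these time courses was not shown.

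**Figure D3:**
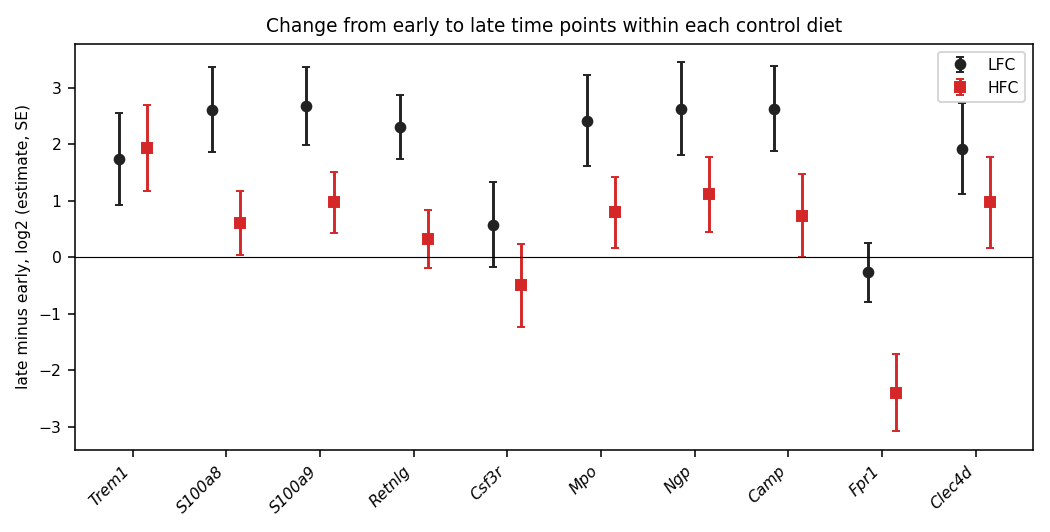
Late minus early normalised log2 signal (vertical axis, limma estimate with its standard error as the bar) of the 10 genes (horizontal axis) within LFC and within HFC. S100a8, S100a9, Retnlg, Camp, Ngp and Mpo lie between 2.31 and 2.68 on LFC and between 0.33 and 1.11 on HFC, and Fpr1 lies below 0 on both.

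Across arrays the 10 genes formed a tight group and several looser ones. The correlations that follow were taken over the 37 arrays other than LFC week 3 and HFC week 12, without a test, over 45 pairs of genes. The arrays share probe design and scaling, and those of 1 time point mostly share a scan day. S100a8 and S100a9, whose proteins form the heterodimer calprotectin, had Pearson r = 0.96 and Spearman rho = 0.96. Camp and Ngp had r = 0.95 and rho = 0.91. With both genes centred on the mean of each time point, which takes out time but not the scan day of week 6, when 2 diets were scanned on another day, r was 0.95 for each of these pairs over 36 arrays.

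The granule and S100 genes were linked. S100a8 had r = 0.84 with Camp (rho = 0.84), 0.84 with Ngp (rho = 0.81), 0.89 with Retnlg (rho = 0.86) and 0.73 with Mpo (rho = 0.65). Without the 2 arrays farthest from the median of S100a8 these values were 0.78, 0.78, 0.88 and 0.64. Mpo was closer to Camp (r = 0.86) and Ngp (r = 0.85) than to Retnlg (r = 0.55). Fpr1 had r between -0.09 and 0.25 with every partner other than Csf3r, for which it was 0.45. With time points centred it had 0.44 with S100a8, 0.42 with Retnlg and 0.54 with Csf3r. The median over all 45 pairs was 0.56.

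**Figure D4:**
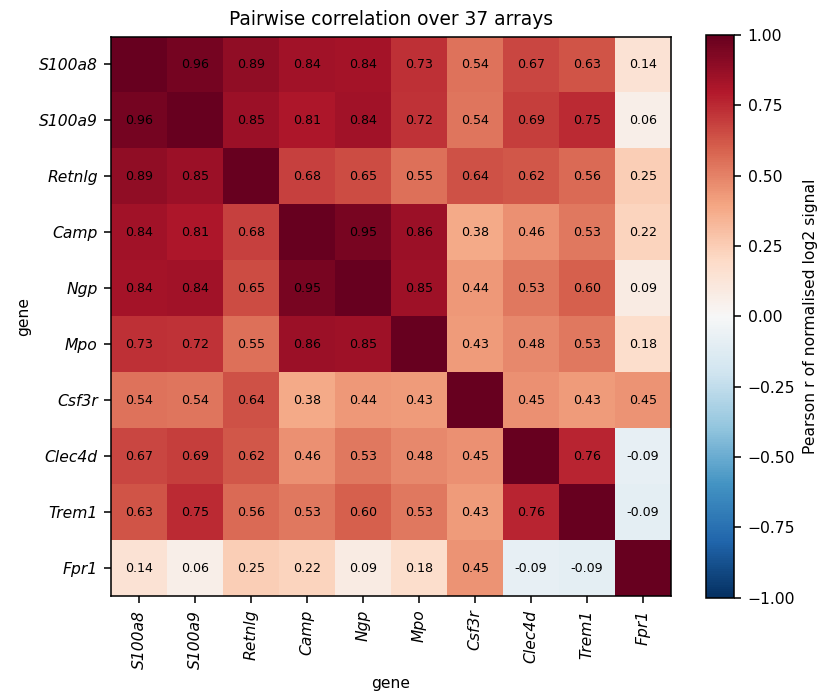
Pearson r of normalised log2 signal between each pair of the 10 genes (both axes) over 37 arrays, with LFC week 3 and HFC week 12 left out. S100a8, S100a9, Retnlg, Camp, Ngp and Mpo have r between 0.55 and 0.96 with each other, and the Fpr1 row is near 0 other than for Csf3r.

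The genes most like S100a8 were sought among 20091 other gene names with a probe detected on at least 20 of the 39 arrays. The 5 closest were S100a9 (r = 0.96), Mmp8 (r = 0.90, rho = 0.89), Retnlg, Camp and Ngp. Mmp8, neutrophil collagenase, is the only one of them outside the 10 genes followed here. It had r = 0.89 without the 2 farthest arrays and 0.92 with time points centred. Mmp8 ran on LFC from -5.95 to -4.38 early and from -4.71 to -2.31 late, and was detected on 4 of 5 and on 5 of 5 of those arrays. Its late minus early estimate was 2.29 ± 0.51 (limma adjusted p = 0.114).

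The genes most like Trem1 were others. The 5 closest were Il1r2 (r = 0.92, rho = 0.91), LOC100046565 (r = 0.88), Vps37b (r = 0.88), Abtb2 (r = 0.87) and Gm8144 (r = 0.87). Il1r2 encodes the decoy receptor for interleukin-1, which neutrophils and monocytes carry, and its r with Trem1 was 0.91 without the 2 farthest arrays and 0.90 with time points centred. Of the other 9 genes followed here, Clec4d ranked 281st of 20091 by likeness to Trem1 (r = 0.76) and S100a9 ranked 365th (r = 0.75). S100a8 was at rank 1635 (r = 0.63) and Fpr1 at rank 11385 (r = -0.09).

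The list of neutrophil attractants and cytokines (14 genes, among them Cxcl1, Il6 and Csf2) split the 37 arrays into 2 clusters. Its summed level, in multiples of the 75th percentile signal, was 3.09 to 7.93 on 11 arrays and 55.9 to 236 on 26 arrays. The low arrays were LFC day 1, day 6 and week 12, HFC days 6, 10 and 14 and week 3, HF20 weeks 6, 12 and 18 and HF75 week 12. Within the clusters, Trem1 had r = 0.25 with the summed level on the 11 low arrays (rho = 0.15) and r = 0.11 on the 26 high arrays (rho = 0.24). Over all 37 arrays Trem1 had r = 0.81 (rho = 0.71) with the summed level, and 0.75 with time points centred. These values include the step between the clusters. The clusters were defined after the values were seen, so the values within them are descriptions. With Il1r2, Trem1 had r = 0.77 (rho = 0.83) on the low and 0.84 (rho = 0.77) on the high arrays. The other 4 genes most like it had lower values in both clusters than over all 37 arrays. On the low arrays they ran from r = 0.40 (rho = 0.15) for Gm8144 to r = 0.64 (rho = 0.57) for Abtb2. On the high arrays they ran from r = 0.60 (rho = 0.50) for Abtb2 to r = 0.73 (rho = 0.73) for LOC100046565. Clec4d had r = 0.68 (rho = 0.67) with the summed level on the 26 high arrays.

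These clusters fall unevenly on the pairs of HFC and LFC. The 3 pairs with the largest Trem1 differences, day 10, day 14 and week 3, are those in which HFC was in the low cluster and LFC was not, or stood apart (week 3). In the other 6 pairs, whose arrays were in the same cluster, Trem1 was lower on HFC by smaller amounts, with differences from -1.70 to -0.67. The part of the clusters in the Trem1 difference was not tested. S100a8 with S100a9 had r = 0.99 in the low and 0.95 in the high cluster.

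**Figure D5:**
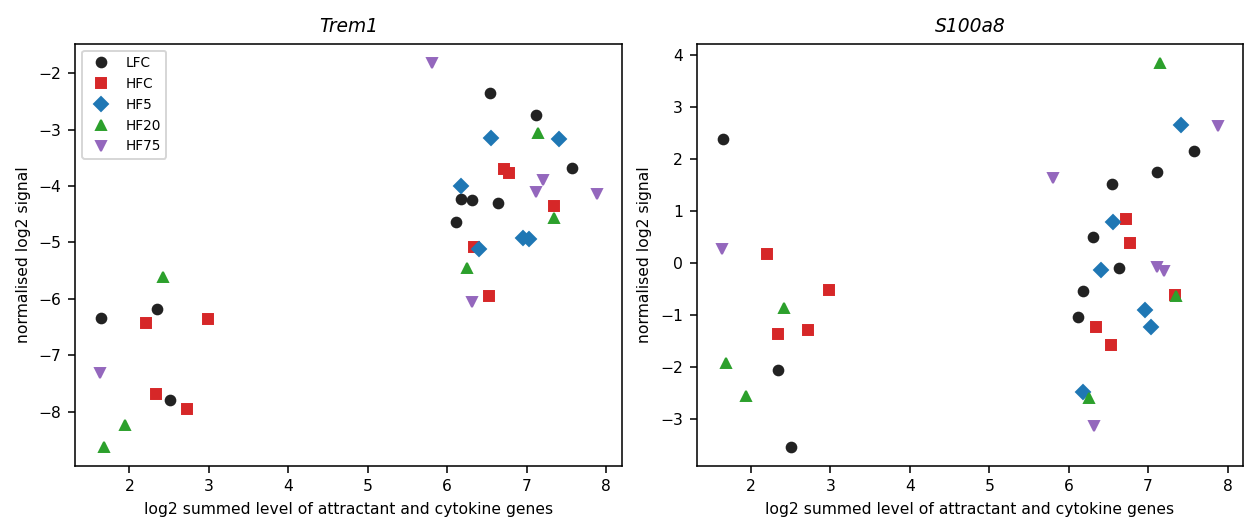
Normalised log2 signal (vertical axis) of Trem1 (left) and S100a8 (right) against the log2 of the summed level of 14 attractant and cytokine genes (horizontal axis, in multiples of the 75th percentile signal) on 37 arrays, by diet. The arrays fall into a low cluster of 11 and a high cluster of 26.

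KAL-1 was compared with HFC in weeks 3 to 18. On HF5, Trem1 had a lowest, median and highest signal of -5.12, -4.46 and -3.16, with 6 of 6 arrays detected. On HF20 the values were -8.62, -5.53 and -3.06, and on HF75 -7.31, -4.13 and -1.82, with 3 of 6 detected on each. The ranges of the 3 doses overlapped with each other and with HFC in the same weeks, which ran from -6.43 to -3.69. These comparisons share the HFC arrays by which Trem1 was picked.

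With the 3 doses averaged and set against HFC, the estimates of the 10 genes ran from -0.42 ± 0.89 (SE) for Ngp to 0.50 ± 0.45 (SE) for Fpr1. S100a8 had 0.22 ± 0.63 (SE) and Camp -0.42 ± 0.97 (SE). None of the 10 passed the threshold (limma adjusted p = 0.9998 for each gene other than Trem1, for which no p is given). Across 31452 probes limma called 0 in each comparison of a dose, or the mean of doses, with HFC and in that of HF75 with HF5 (0% called). At an unadjusted p of 0.05 the counts were 1076 for HF5, 1523 for HF20, 472 for HF75, 549 for the mean of doses and 1828 for HF75 against HF5. HF75 minus HF5 was -1.27 ± 0.92 (SE) for Mpo and 0.73 ± 0.51 (SE) for Fpr1, the largest of the 10. Of the granule list, Chi3l3 had 1.48 ± 0.56 (SE) and Lcn2 1.07 ± 0.61 (SE) for the mean of doses, and neither passed. The list as a whole did not share this, with a median of -0.095. Of its 15 genes tested 6 were higher and 9 lower, beside 14713 and 16739 of all probes. For Clec4d the mean of HF5 minus HFC was 1.03 ± 0.58 (SD, n = 6), and 1.33 ± 0.38 (SD, n = 4) without weeks 3 and 12, with no probe past the threshold in that comparison. On HF20 the mean was -0.13 ± 1.31 (SD, n = 6), with 3 weeks higher and 3 lower. On HF75 it was 0.54 ± 1.71 (SD, n = 6), with 4 weeks higher and 2 lower. The median was 0.98 on HF75 and 1.02 on HF5. HF75 minus HF5 was -0.49 ± 1.38 (SD, n = 6), so a difference between these doses was not shown.

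Single weeks differed widely. In week 15 all 10 genes were higher on HF5 than on HFC, and all 10 were higher on HF20 than on HFC, where 45.5% and 45.8% of all probes were. Camp in that week was 1.18 on HF5 and 2.39 on HF20, against -3.35 on HFC and 0.80 on LFC. In week 6, 8 of 10 were lower on HF5 than on HFC (55.2% of all probes), and all 10 were higher on HF75 than on HF5 (53.2% of all probes). In week 3, 8 of 10 were lower on HF75 than on HF5 (49% of all probes). Each of these is a difference between single arrays, with no replicate.

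On HF75 in week 15 the S100 genes were high and 3 granule genes were not. S100a8, S100a9 and Retnlg were 2.64, 5.13 and 0.52 there, near the HF5 array of that week at 2.65, 5.61 and -0.26. Camp, Ngp and Mpo were -2.10, -4.58 and -3.84, against 1.18, -0.61 and 1.93 on HF5. This was so for these 3 genes on 1 array, and the granule list as a class gave no single direction. The median of the 17-gene granule list was -2.51 on that array and -3.55 on the HF5 array. Its summed level was 7.33 and 15.3, with 12 and 14 of its genes detected. HF20 in week 15 was high for both kinds, with S100a8 at 3.84, Ngp at 0.79 and Mpo at 1.66.

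Ly6g, taken here as the defining surface marker of neutrophils, was detected on all 37 arrays without the 2 that stood apart, between -4.96 and 0.48. It followed S100a8 and Camp only loosely, with r = 0.35 (rho = 0.30) with S100a8 and 0.27 (rho = 0.22) with Camp. Once time points were centred, r with Camp was -0.05. Its late minus early estimate within LFC was 0.47 ± 0.79, and its HFC minus LFC estimate was 0.09 ± 0.37.

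The other genes of the neutrophil lists gave no call in any of these comparisons. Of the granule list, 17 of 20 genes were on the array and 15 were tested within LFC. Of these, 12 had a positive late minus early estimate, as had 13290 of all 30420 probes. The median of that list was 1.06. The largest were Mmp8, Ctsg (2.14, limma adjusted p = 0.928), a primary granule protease, and Stfa2l1 (2.07 ± 0.70), a stefin. The surface and lineage list (17 tested) had a median of 0.82, with Csf3 (2.89 ± 2.58), Gfi1 (2.04 ± 0.73), a transcription factor of granulocyte formation, and Il1r2 (1.57 ± 1.07) in front. The TREM family and its signalling genes (14 tested) had a median of 0.40, and here Treml4 had -1.68 ± 0.54, Treml2 1.44 ± 0.84 and Hcst 1.36 ± 0.46. For the attractant list (12 tested) the median was 1.54.

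Within HFC the attractant list had a median late minus early of 2.70, with Il6 at 5.97 ± 2.66, Cxcl1 at 5.26 ± 1.85 and Csf2 at 4.14 ± 1.64, and 0 of 13 passed. Against the week 0 array alone Il6 and Cxcl1 were -1.26 and -0.32, so the sign of these estimates rests on the arrays of days 6 to 14. Lcn2, a secondary granule protein that adipocytes and macrophages also make, was -3.24 ± 0.88 and Treml4 -2.17 ± 0.43. For HFC against LFC, 5 of the 15 granule genes tested had an unadjusted limma p below 0.05 and a negative estimate, as had 1.68% of all probes. The largest were Bpi at -2.25 ± 0.80, Mmp8 at -1.20 ± 0.26 and Cd177 at -1.15 ± 0.50. Bpi and Cd177 were faint, detected on 17 of 39 and 18 of 38 arrays with a value. In the surface and lineage list 0 of 17 had such a p, with 8 higher and 9 lower on HFC. Of the TREM list 8 were higher and 6 lower, and of the attractant list 2 and 10. The lists were chosen with earlier results of these data known, so these counts are descriptions. Trem2, the macrophage relative of Trem1, was 0.89 ± 0.28 on HFC. None of these passed the adjusted threshold.

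Markers of other cells moved on some of the same arrays. Within LFC, all 8 lymphoid markers had positive late minus early estimates with a median of 1.54, as had 13290 of all 30420 probes a positive one. The summed level of the lymphoid list ran from 0.284 to 1.46 early and from 0.913 to 16.5 late. The highest late value was that of week 6, and the next was 3.94 in week 15. Weeks 12 and 18, at 1.19 and 0.913, lay within the early range. S100a8 had r = 0.56 (rho = 0.60) with the log2 summed level of the lymphoid list and 0.26 (rho = 0.24) with that of the red cell and platelet list. The monocyte and macrophage list (12 of 12 on the array) had a summed level of 34.0 to 64.4 early and 8.04 to 90.8 late on LFC, the lowest of which was week 3. Its r with S100a8 was 0.47 (rho = 0.44) and 0.10 with time points centred. Over the 10 genes its r ran from 0.22 for Mpo (rho = 0.18) to 0.69 for Csf3r (rho = 0.63). With time points centred it ran from -0.22 for Ngp to 0.61 for Csf3r. Epididymis markers (9 of 10 on the array) varied most, with a summed level of 0.134 to 117 early and 0.153 to 96.8 late on LFC, and had r = 0.05 (rho = 0.05) with S100a8 and 0.20 (rho = 0.16) with Camp. Adipocyte markers had r = -0.30 (rho = -0.39) with S100a8. The part of these cells in the values of the neutrophil genes was not tested.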

How the data were processed

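Epididymal adipose RNA was measured on 39 arrays. The deposited scanner output gives spot intensity, corrected for background and spatial trend by Feature Extraction 10.5.1.1 per the file headers; the submitters' notes name version 9.1. The authors also deposited log2 values relative to LFC at each time, used as an alternative only. The processed signal was log2 transformed, the 75th percentile of the array was subtracted, outlier spots were set to missing and spots of a probe were averaged. Probes were tested if detected on at least 10 of 20 arrays (HFC against LFC), 6 of 30 (weeks 3 to 18), 5 of 11 (LFC) or 4 of 10 (HFC). Differences were tested by limma 3.58.1 (R 4.3.3, the data.table package, version 1.17.8; sequences and figures with Python 3.11.15, pandas 2.3.3, numpy 2.4.6 and matplotlib 3.10.9), two-sided, with time point as a block between diets and Benjamini-Hochberg adjustment over all probes tested; the threshold was 0.05. The fits were tested on simulated data with less spread between arrays than the 10 genes have and with changes larger than most found here. That test does not give the power for these genes. The 10 genes were named by GeneName, each by its brightest probe, and genes of 9 further lists where they passed or were among the 3 with the largest difference in a comparison. The genes and lists were chosen with earlier results of these data known. Coordinates are those of RefSeq on GRCm38.p6, while the arrays were annotated on mm9. Alternatives were normexp (offset 50), quantile normalisation, outlier spots kept, other filters on dim probes, arrays left out, no block, slide as a random block week 0 as the only early array and, added after seeing the data, day 14 and week 0 averaged. The number of arrays limits the precision.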

Additional observations from a re-analysis of the deposited data

Results flagged for a closer look

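Of 40 groups of values of the 10 genes with 4 to 10 arrays, 3 held an array far from the others, measured as its gap to the nearest array over the whole range; chance gives about 1 in 20 such groups. Camp in HFC was 0.16 in week 6, where the nearest of the other 8 values was -2.26 and the lowest was -4.20. S100a8 in HF20 was 3.84 in week 15, where the nearest of the other 5 values was -0.64 and the lowest was -2.60. Ngp in HF75 was -7.62 in week 3, where that spot was not well above background, the nearest value was -4.58 and the highest was -3.54. None of the 10 genes passed the test of a different change with time between LFC and HFC.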

How the results depend on the processing

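Within LFC, 149 probes passed for late against early. The count was 0 with normexp, 67 with quantile normalisation, 82 with outlier spots kept, 40 among probes detected on every array, 0 against week 0 alone and 50 to 213 with 1 time point left out. Within HFC the count of 0 became 0 to 743 with 1 time point left out, the highest without week 0, and 1 against week 0 alone. It became 0 to 1 for the mean of KAL-1 doses with 1 time point left out, and 1 for HF75 against HF5 without the 2 arrays that stood apart. With no replicate block (time point left out of the model), 0 probes passed in each of the 6 comparisons between diets, as with the block; arrays were paired by time point. With day 14 and week 0 averaged as 1 time point, an alternative chosen after seeing the data, 93 probes passed within LFC and 5 within HFC, and 0 between the diets. Several estimates changed sign. Against week 0 alone they became -0.85 (Csf3r), -0.025 (Csf2), -0.52 (Cxcl3) and -2.52 (Il6) within LFC, and -0.61 (Mpo), -1.08 (Clec4d), -0.20 (Csf3), -1.16 (Clec4e), -1.82 (Trem3), -1.26 (Il6) and -0.32 (Cxcl1) within HFC. Fpr1 within LFC was 0.35 with normexp, 0.27 with outlier spots kept and -0.58 to 0.15 with 1 time point left out, the highest without week 18. Within HFC, Retnlg was -0.030 with quantile normalisation and -0.11 to 0.94 with 1 time point left out, the lowest without day 14, and Csf3r was -0.95 to 0.24, the highest without day 10. Past the threshold only with 1 time point left out were S100a9 within LFC (limma adjusted p = 0.0454 without week 3), Mmp8 within LFC (0.0339 without week 18), and Lcn2, Treml4 and Cxcl1 within HFC (0.0388, 0.0463 and 0.0473 without week 0). The cause of these changes was not tested.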
